A study of Mus musculus with 8 samples.

Results

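The genes described here encode receptors and partners of efferocytosis, the uptake of dying cells: the receptors Axl, Mertk, Havcr2, Timd4, Cd36, Stab1 and Lrp1, the bridging ligand Gas6 and the engulfment adaptor Elmo1. Their chromatin was read in conventional type 1 dendritic cells, or cDC1, that had been sorted from the spleens of mice. The assay was ATAC-seq, which marks open chromatin by the insertion of adapters with a transposase. The members were all regions of the count table that overlap the span of 1 of the 9 genes or lie within 25 kb of it on GRCm38. This gave 100 of 59906 regions (0.167%): 6 for Axl, 6 for Mertk, 12 for Havcr2, 6 for Timd4, 11 for Cd36, 8 for Stab1, 20 for Lrp1, 2 for Gas6 and 29 for Elmo1. The study compared 4 libraries of splenic cDC1 from WT mice with 4 from CD11c-Cre;OPA1 flox mice, called OPA1-deficient here and OPA1KO in the sample names. OPA1 drives fusion of inner mitochondrial membranes and keeps cristae in shape. The CD11c-driven Cre can act in any cell that expresses CD11c, some macrophages included. The labels give neither the age of the mice, the sort gate, nor whether WT mice carried Cre or the floxed allele. They also do not tie libraries to animals, so each p-value reflects only how these 8 libraries varied, and that variation may be technical.

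Dying cells expose phosphatidylserine, which phagocytes bind either directly, through receptors such as TIM-4, TIM-3 and stabilin-1, or through bridging proteins. GAS6 is such a bridge and links the lipid to the TAM receptor tyrosine kinases AXL and MERTK. Engulfment then needs actin remodelling, for which ELMO1 and a DOCK protein activate the small GTPase RAC. In splenic cDC1 the uptake of dead cells supplies antigen that is cross-presented to CD8 T cells, and TIM-3 is a well known surface marker of these cells.

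Levels are CPM after TMM scaling, and levels of single genes are compared with one another only as CPM per kb of region. Totals ranged from 4660826 to 7590578 counts per library, and a member region held 2 to 1084 counts in a library, with a median of 44.5. Member regions resembled the table as a whole in width (median 344 bp against 323 bp), in WT level (20.7 against 20.0 CPM per kb) and in the coefficient of variation among WT libraries (22.3% against 21.5%). Of the cDC1 marker genes 8 of 12 had a region within 1 kb of a gene start, with sums of 197 to 223 CPM in WT against 202 to 216 CPM in OPA1-deficient libraries. Xcr1, Clec9a, Itgae and Cadm1 had no such region. The 4 markers with the highest window level were Clec9a, Naaa, Wdfy4 and Batf3, at 42.4, 37.7, 34.7 and 33.8 CPM per kb in WT. Windows include regions of neighbouring genes, and these levels do not set cDC1 markers apart from those of other cells. Among B cell markers, for example, Cd79a was at 119 and Cd79b at 19.0 CPM per kb in WT. Of the 12 cDC1 marker windows 10 were higher and 2 lower in OPA1-deficient libraries (median log2 fold change 0.04), where 59.5% of all gene windows were lower, and 0 were called by edgeR. At an unadjusted p under 0.05 in edgeR there was 1 of the 12, where 5.20% of all windows were. This was Cd8a, picked after its values were seen. It was at 10.2 to 15.0 CPM in WT against 15.6 to 18.7 CPM in OPA1-deficient libraries (0.44 ± 0.16, edgeR adjusted p = 0.826). Start regions were found for 4 markers of conventional type 2 dendritic cells (cDC2), with sums of 160 to 187 CPM over the 8 libraries. Sums were 43.8 to 78.7 CPM for 4 neutrophil and monocyte markers and 29.5 to 35.0 CPM for 2 plasmacytoid dendritic cell markers. With 2 markers each, T cells had 7.91 to 12.5 CPM, B cells 7.53 to 12.5, NK cells 4.76 to 9.73 and erythroid cells 4.35 to 14.7. These sums cover different numbers of regions and are not compared between lists. No cell type was counted, and at any region a smaller share of cells with open chromatin and less open chromatin per cell cannot be told apart.

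The starts of the 9 genes differed in sequence and in accessibility. RefSeq promoters on GRCm38.p6, from 250 bases before to 50 after the start, matched all 9 genes. Those of Havcr2 and Cd36 are shown because they were poor in CG dinucleotides and differed in level. Those of Mertk and Gas6 are shown because their starts were the weakest of those with a region. That of Timd4 is shown as an example without a region within 1 kb. Axl and Stab1 also had no region within 1 kb of a start, and their promoters are not shown. Capitals mark matches, on either strand, to GAGGAA (the core bound by the myeloid factor PU.1), GGAANNGAA (an ETS-IRF composite, which shares its GGAA with the PU.1 core), TGANTCA (AP-1), TGTGGT (RUNX) and GGGCGG (SP/KLF).
Havcr2, chr11:46454681-46454980, plus strand: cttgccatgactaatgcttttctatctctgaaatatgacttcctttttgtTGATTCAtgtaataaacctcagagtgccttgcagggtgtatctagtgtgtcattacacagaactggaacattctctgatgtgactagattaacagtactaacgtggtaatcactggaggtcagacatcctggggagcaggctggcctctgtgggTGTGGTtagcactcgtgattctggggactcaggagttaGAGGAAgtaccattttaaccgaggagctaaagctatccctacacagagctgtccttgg
Cd36, chr5:17835847-17836146, minus strand: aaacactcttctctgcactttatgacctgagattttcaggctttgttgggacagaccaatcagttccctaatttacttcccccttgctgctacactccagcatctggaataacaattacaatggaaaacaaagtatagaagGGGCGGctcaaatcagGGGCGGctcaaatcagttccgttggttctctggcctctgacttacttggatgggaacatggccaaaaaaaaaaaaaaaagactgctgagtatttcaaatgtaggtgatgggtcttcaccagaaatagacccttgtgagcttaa
Mertk, chr2:128698665-128698964, plus strand: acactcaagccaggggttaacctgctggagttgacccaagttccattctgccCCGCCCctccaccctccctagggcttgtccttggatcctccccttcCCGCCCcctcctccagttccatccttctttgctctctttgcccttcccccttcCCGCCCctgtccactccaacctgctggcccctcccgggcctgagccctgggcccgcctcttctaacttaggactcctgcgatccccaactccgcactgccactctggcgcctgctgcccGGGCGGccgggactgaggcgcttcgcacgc
Gas6, chr8:13494486-13494785, minus strand: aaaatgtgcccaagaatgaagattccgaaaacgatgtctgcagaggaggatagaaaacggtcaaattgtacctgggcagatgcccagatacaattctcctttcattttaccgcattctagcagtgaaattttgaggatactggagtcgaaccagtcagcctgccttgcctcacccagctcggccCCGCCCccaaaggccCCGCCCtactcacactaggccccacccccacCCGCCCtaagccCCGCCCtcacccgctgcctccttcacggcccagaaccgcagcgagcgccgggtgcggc
Timd4, chr11:46810549-46810848, plus strand: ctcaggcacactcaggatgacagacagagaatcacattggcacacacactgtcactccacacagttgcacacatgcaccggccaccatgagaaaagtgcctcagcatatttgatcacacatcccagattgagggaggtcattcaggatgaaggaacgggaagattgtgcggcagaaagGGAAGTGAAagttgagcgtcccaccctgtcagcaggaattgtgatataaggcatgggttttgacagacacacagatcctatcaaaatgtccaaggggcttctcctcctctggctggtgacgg

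Havcr2 held 1 match each to AP-1, RUNX and the PU.1 core, the last starting 8 bases before the gene start, and 3 CG dinucleotides. Over all 21262 promoters of the table the median was 13 CG, and 6.99% held the AP-1 letters, 15.0% the RUNX letters and 27.4% the PU.1 letters. Cd36 also had 3 CG, with 2 SP/KLF matches, letters that 46.2% of promoters hold. Mertk (14 CG) and Gas6 (17 CG) each held 4 SP/KLF matches and none to the myeloid motifs. Timd4 held 1 ETS-IRF match, starting 72 bases before its start, as 7.77% of promoters do. Among promoters not shown, that of Axl matched the PU.1 core and SP/KLF, and that of Stab1 the PU.1 core and the ETS-IRF composite. Elmo1 matched the PU.1 core and SP/KLF at its first listed start and none of the motifs at its second. Lrp1 matched SP/KLF. A match describes these letters and is not a bound site.

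Of the 9 genes, 6 had a region within 1 kb of a start, against 9822 of 17491 protein-coding genes (56.2%) in the table. The strongest such region in WT reached 64.0 CPM per kb at Havcr2, above 52.2% of genes with a start region, then 44.2 at Elmo1 (37.2%), 32.1 at Lrp1 (26.5%), 26.1 at Cd36 (21.1%), 16.1 at Mertk (9.26%) and 15.7 at Gas6 (8.66%). The median over all such genes was 60.6 CPM per kb, so 1 of the 6 lay above it. No region was within 1 kb of the start of Timd4, Stab1 or Axl, where the nearest lay 1.49, 2.15 and 6.88 kb away, each inside the gene.

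**Figure D1:**
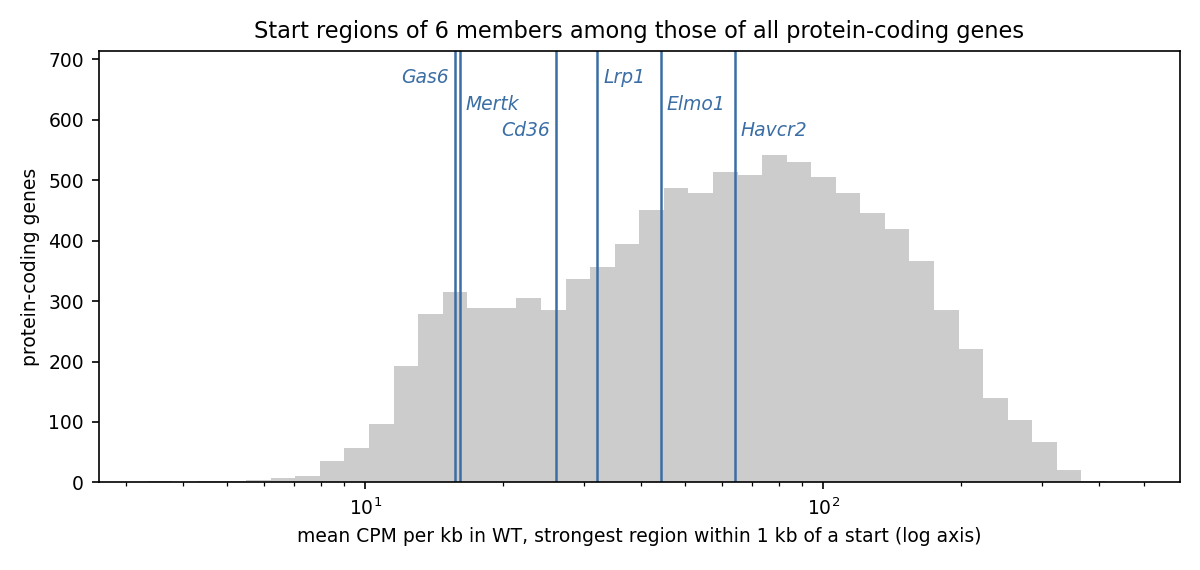
Grey bars count protein-coding genes by the mean WT level (CPM per kb, log axis) of their strongest region within 1 kb of a start, and blue lines mark the 6 members with such a region. Gas6 and Mertk lie at the low end, at 15.7 and 16.1 CPM per kb, and Havcr2 lies near the middle, at 64.0.

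The genes were then ordered by the level of their own regions, those over the gene span or within 1 kb of its start, 67 regions in all. In WT libraries, Havcr2 had 61.1 ± 7.19 CPM per kb (SD, n = 4), Stab1 43.6 ± 13.3, Axl 41.1 ± 8.20, Cd36 32.8 ± 4.45, Elmo1 29.1 ± 2.48, Lrp1 24.2 ± 1.81, Timd4 18.9 ± 3.17, Gas6 15.7 ± 3.94 and Mertk 14.1 ± 1.47. The WT values of each neighbouring pair in this order overlapped, except for Elmo1 and Lrp1, where the lowest Elmo1 value (26.8) lay above the highest Lrp1 value (25.2).

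No member region differed between WT and OPA1-deficient cDC1 by the test over all regions. Of the 97 member regions that passed the filter on low counts, 0 were called at an edgeR adjusted p of 0.05, where 12 of 59247 tested regions were called (0.0203%), and DESeq2 and limma-voom also called 0. The smallest edgeR adjusted p was 0.624. Values were lower in OPA1-deficient libraries at 55 regions and higher at 42 (56.7% lower, against 50.7% of all tested regions), with log2 fold changes, OPA1-deficient minus WT, from −0.76 to 0.71 and a median of −0.05 (−0.00 over all tested regions). At an unadjusted p under 0.05 there were 2 higher and 3 lower, where 2.92% and 3.46% of all tested regions were, and the groups did not overlap at 2 higher regions and 0 lower ones (1.84% and 2.11% of all). The median standard error was 0.25, the same as over all regions.

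**Figure D2:**
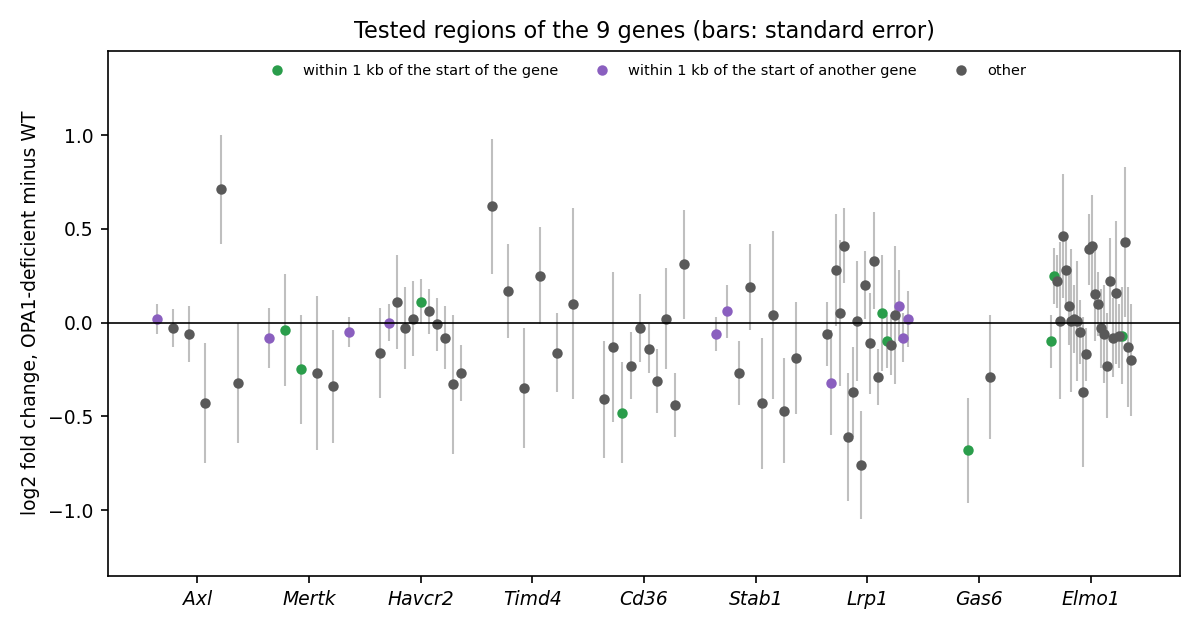
Log2 fold change (OPA1-deficient minus WT) with its standard error for each of the 97 tested regions, ordered by coordinate within each gene. Values lie on both sides of 0 in most genes, from −0.76 at a region inside Lrp1 to 0.71 at a region upstream of Axl.

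Counts summed over each gene's regions, its window, gave tighter estimates and again no call. The edgeR fit over 16976 gene windows called 4 (0.0236%), Itgax, Itgam, Itgad and Cox6a2, which neighbour one another, and 0 of the 9 windows described here (smallest adjusted p 0.966, and 0 at an unadjusted p under 0.05). DESeq2 and limma-voom called 0 of the 9. Of these windows 7 were lower and 2 higher, with a median log2 fold change of −0.06 where all windows had −0.02 and 59.5% of them were lower. The 95% intervals reached from 0.13 to 0.53 to either side of the estimate.

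**Figure D3:**
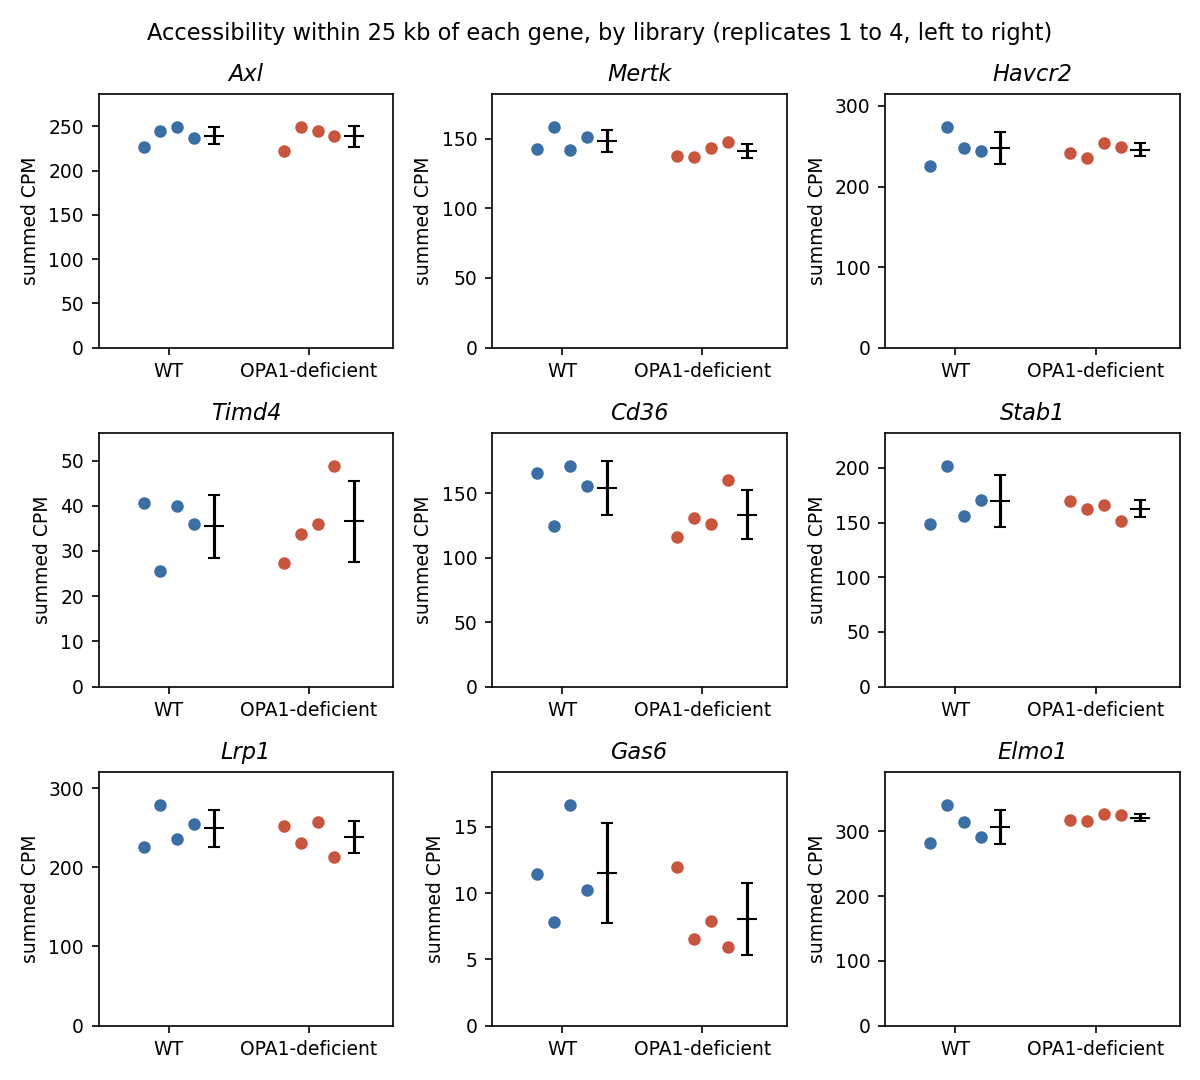
CPM summed over the regions within 25 kb of each gene in each library (points, replicates 1 to 4 from left to right), with the mean and SD of each group of 4. The groups overlap at all 9 genes, and Gas6 and Cd36 have the lowest OPA1-deficient means relative to WT (8.07 against 11.5 CPM and 134 against 154 CPM).

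Axl encodes a receptor tyrosine kinase that binds GAS6. Its window was dominated by its downstream neighbour: the region at the start of Hnrnpul1 (chr7:25754615-25755521) was at 129, 145, 135 and 133 CPM in WT replicates 1 to 4 and 124, 142, 145 and 138 CPM in OPA1-deficient replicates 1 to 4, and Axl's own 2 regions made up 12.9% of the window. The stronger of these, 11.5 kb inside the gene (chr7:25776696-25777205), was at 30.4, 21.3, 33.3 and 26.2 CPM in WT against 23.6, 27.9, 25.3 and 29.8 CPM in OPA1-deficient libraries, and the groups overlapped. The region nearest the start (chr7:25781585-25781857, inside the gene) had 4.28 ± 1.54 and 3.12 ± 0.379 CPM. The weak region 16.9 kb upstream (chr7:25805618-25805869), which lies over the neighbouring gene Cyp2s1, was 1 of the 2 whose groups did not overlap. It was at 2.43, 3.12, 2.95 and 3.23 CPM in WT against 5.12, 4.71, 4.69 and 4.59 CPM in OPA1-deficient libraries (log2 fold change 0.71 ± 0.29, edgeR adjusted p = 0.697). Summed over the window the groups were alike in mean, 239 ± 9.82 and 239 ± 11.8 CPM (−0.00, 95% interval −0.14 to 0.13), and over the gene span the values were 32.1 ± 6.40 and 29.8 ± 3.02 CPM (−0.10, −0.38 to 0.17).

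Mertk encodes the TAM receptor used by many tissue macrophages for apoptotic cells, and its own regions had the lowest mean WT level per kb of the 9 genes, with values that overlapped those of Gas6. By the strongest start region Gas6 was lower (15.7 against 16.1 CPM per kb). The Mertk region nearest the start (chr2:128698574-128698899) had 3.34, 4.36, 6.33 and 4.12 CPM in WT against 3.98, 3.44, 3.08 and 4.59 CPM in OPA1-deficient libraries, with overlapping groups (−0.25 ± 0.29, and −0.05 without WT replicate 3). A single region lay inside the gene, at 2.80 ± 1.25 and 2.36 ± 0.914 CPM. All 6 regions of the window had lower means in OPA1-deficient libraries, from −0.34 to −0.04, with the smallest p at a region downstream of the gene (chr2:128806643-128806913, 4.55 ± 1.50 and 3.59 ± 0.359 CPM, edgeR adjusted p = 0.900). The strongest region of the window, at the start of Tmem87b (chr2:128817586-128818623), had 113 ± 7.96 and 110 ± 5.46 CPM. Without regions at the starts of other genes, a setting added after the data were seen, the Mertk window held 15.7 ± 1.13 and 13.4 ± 1.65 CPM (−0.23, 95% interval −0.54 to 0.09).

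Havcr2 encodes TIM-3, and its own regions had the highest mean WT level per kb of the 9 genes. Its start region (chr11:46454537-46455114), which covers the promoter shown above, was at 35.3, 43.3, 35.0 and 34.1 CPM in WT against 41.8, 42.6, 38.6 and 36.4 CPM in OPA1-deficient libraries. All 4 OPA1-deficient values lay above WT replicates 1, 3 and 4 and below WT replicate 2 (0.11 ± 0.12, edgeR adjusted p = 0.924). A further 5 regions lay inside the gene. Of these, the pair 6.47 and 7.05 kb from the start had 31.8 ± 1.26 and 27.1 ± 3.27 CPM in WT against 33.2 ± 3.00 and 26.8 ± 2.50 CPM, and the next, at 11.9 kb, had 35.0 ± 10.1 against 33.0 ± 5.31 CPM. The region with the smallest p, near the end of the gene (chr11:46480454-46480921), was at 22.0 ± 2.62 and 18.1 ± 1.94 CPM (−0.27 ± 0.15, edgeR adjusted p = 0.825). The strongest region of the window was the start of the neighbouring gene Med7 (chr11:46436719-46437215, 55.2 ± 3.21 and 55.5 ± 3.49 CPM). The whole window had 248 ± 20.3 and 245 ± 8.20 CPM (−0.01, 95% interval −0.16 to 0.14).

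Timd4, on the same stretch of chromosome 11, encodes TIM-4, which binds phosphatidylserine directly and is best known from resident macrophages. It was weakly accessible, with 2 regions inside the gene and 4 upstream. The stronger, 1.49 kb inside (chr11:46812287-46812869), had 13.8, 10.1, 13.7 and 14.0 CPM in WT against 9.39, 9.06, 10.7 and 17.1 CPM in OPA1-deficient libraries. The highest and the lowest of these 8 values were both OPA1-deficient (−0.16 ± 0.21, edgeR adjusted p = 0.941). Upstream, the region at chr11:46792973-46793221 was the other whose groups did not overlap, at 2.28, 1.87, 1.90 and 2.33 CPM in WT against 2.70, 2.54, 3.62 and 4.10 CPM in OPA1-deficient libraries (0.62 ± 0.36, edgeR adjusted p = 0.826). The window held 35.5 ± 6.93 and 36.5 ± 8.99 CPM (0.04, 95% interval −0.32 to 0.40), and over the gene span alone the sign turned (−0.12, −0.53 to 0.29).

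Stab1 encodes stabilin-1, a scavenger receptor of macrophages and endothelium that also binds phosphatidylserine. Of its 2 own regions, the one 2.15 kb inside the gene (chr14:31165979-31166493) was at 11.3, 28.4, 16.7 and 21.5 CPM in WT against 28.2, 22.3, 23.2 and 15.3 CPM in OPA1-deficient libraries (0.19 ± 0.23, edgeR adjusted p = 0.935). The log2 fold change was 0.00 without WT replicate 1 and 0.45 without WT replicate 2. WT replicate 2 and OPA1-deficient replicate 1 were the highest and WT replicate 1 and OPA1-deficient replicate 4 the lowest of their groups. The region with the smallest p, 20.1 kb upstream and over the neighbouring gene Nisch (chr14:31188706-31189068), had 5.96 ± 1.55 and 4.26 ± 1.41 CPM (edgeR adjusted p = 0.835). The strongest of the window lay at the start of Smim4 (chr14:31128785-31129266, 87.7 ± 7.47 and 84.3 ± 2.76 CPM). The window had 170 ± 23.6 and 163 ± 7.84 CPM (−0.06, 95% interval −0.24 to 0.12).

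Cd36 encodes a scavenger receptor for oxidised lipids, thrombospondin and dying cells. All 11 of its regions lay over the gene span, which extends upstream of the start listed by RefSeq, and 8 of the 10 tested had lower means in OPA1-deficient libraries. The start region (chr5:17835664-17836216) was at 18.9, 7.17, 15.2 and 16.5 CPM in WT against 6.54, 11.1, 8.98 and 15.1 CPM in OPA1-deficient libraries. WT replicate 2 sat among the low OPA1-deficient values and OPA1-deficient replicate 4 just under the other WT values (−0.48 ± 0.27, edgeR adjusted p = 0.825). The strongest region, 18.3 kb upstream of that start (chr5:17854159-17855023), was also lowest in WT replicate 2 and highest in OPA1-deficient replicate 4 within their groups, at 50.8, 36.3, 47.5 and 45.2 CPM in WT against 31.9, 38.2, 44.4 and 48.5 CPM in OPA1-deficient libraries (−0.14 ± 0.13). At the region with the smallest p, 44.0 kb upstream of the start (chr5:17879857-17880442), values were 22.5, 16.2, 24.7 and 21.2 CPM against 14.4, 13.8, 14.2 and 19.7 CPM (−0.44 ± 0.17, edgeR adjusted p = 0.644). Here OPA1-deficient replicates 1 to 3 were below each WT library and replicate 4 was not.

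Over its window Cd36 had 166, 125, 171 and 156 CPM in WT against 116, 131, 127 and 161 CPM in OPA1-deficient libraries. The difference did not pass the test (−0.21 ± 0.10, 95% interval −0.43 to 0.01, edgeR adjusted p = 0.966). In WT, replicate 2 was lowest at 7 of the 11 regions, and among OPA1-deficient libraries replicate 4 was highest at 6 of 11. The window's log2 fold change was −0.30 without WT replicate 2 and −0.31 without OPA1-deficient replicate 4 (edgeR adjusted p = 0.211 and 0.497), and without 1 of the other 6 libraries it was −0.20 to −0.15.

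**Figure D4:**
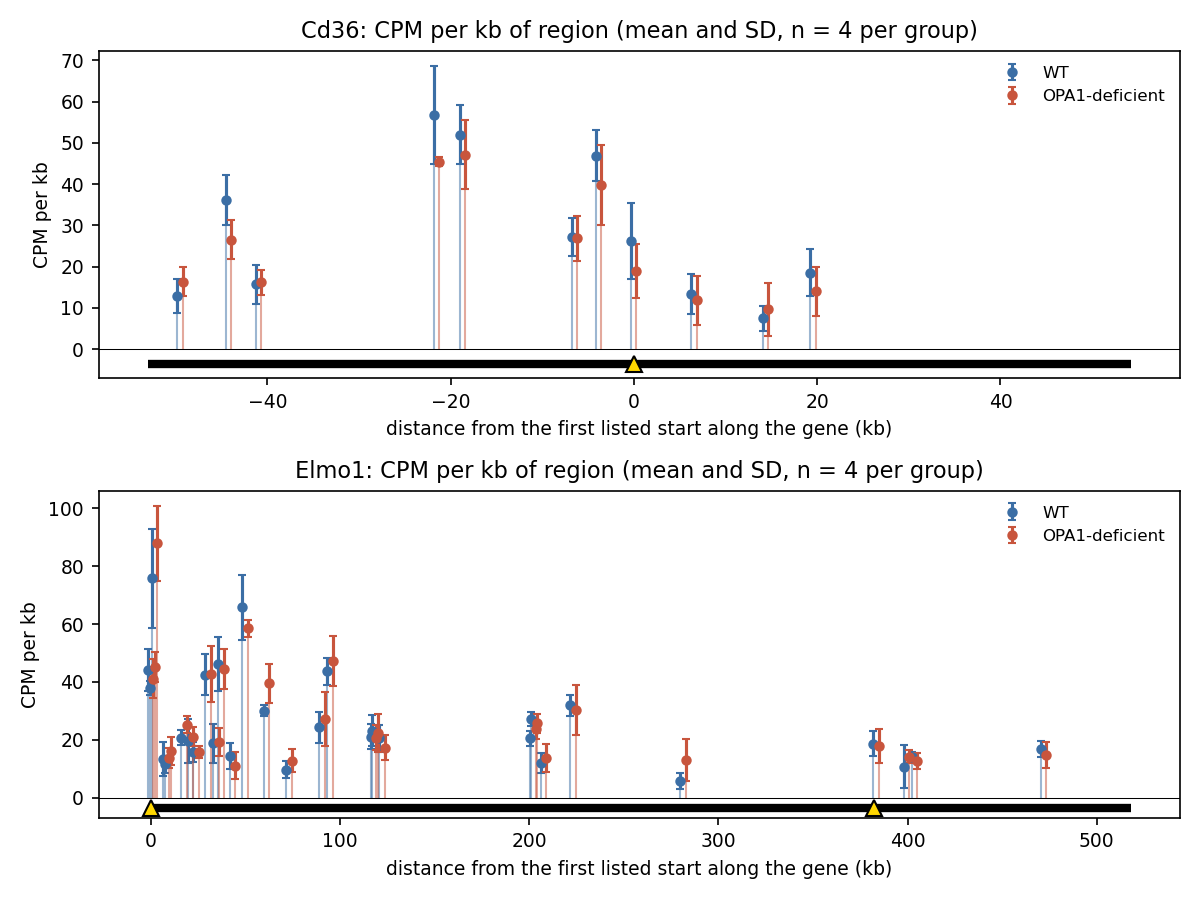
Mean level (CPM per kb of region) and SD of 4 WT and 4 OPA1-deficient libraries at each region of Cd36 and Elmo1, by distance from the first listed start along the gene (kb). The black bar is the gene span, triangles are listed starts, and the 2 groups are shifted sideways for legibility. At Cd36 the 4 strongest regions lie upstream of the start, while Elmo1 has regions along most of its length, densest near the start.

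Lrp1 encodes a large endocytic receptor that takes up dying cells marked by calreticulin. Of its 20 regions 10 had higher and 10 lower means in OPA1-deficient libraries. The larger start region (chr10:127621539-127622391) was at 26.6, 28.8, 24.9 and 29.0 CPM in WT against 24.5, 26.6, 28.8 and 22.0 CPM in OPA1-deficient libraries, with overlapping groups (−0.10 ± 0.14, edgeR adjusted p = 0.942). The region nearest the start (chr10:127621235-127621434) was weaker, at 3.76 ± 1.06 and 3.94 ± 0.787 CPM. The smallest p of all 97 tested regions belonged to a region inside the gene (chr10:127590976-127591454). It had 5.32, 6.39, 10.97 and 6.63 CPM in WT against 5.83, 2.90, 2.82 and 5.41 CPM in OPA1-deficient libraries (−0.76 ± 0.29, edgeR adjusted p = 0.624), and WT replicate 3 stood highest. Without WT replicate 3 the log2 fold change was −0.51. The strongest region of the window was at the start of the upstream neighbour Stat6 (chr10:127642742-127643210, 39.0 ± 8.30 and 37.0 ± 4.74 CPM). The window had 249 ± 23.4 and 238 ± 20.7 CPM (−0.06, 95% interval −0.23 to 0.11).

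Gas6, the bridge between phosphatidylserine and the TAM receptors, had the largest difference among the 9 windows and the fewest counts. Its start region (chr8:13494291-13494669) was at 7.45, 4.36, 6.96 and 5.02 CPM in WT against 4.55, 3.44, 3.89 and 2.79 CPM in OPA1-deficient libraries. Only WT replicate 2 and OPA1-deficient replicate 1 broke the separation of the groups (−0.68 ± 0.28, edgeR adjusted p = 0.695). The other region, 9.45 kb upstream (chr8:13503986-13504551), was at 3.95, 3.43, 9.70 and 5.20 CPM and 7.40, 3.08, 4.02 and 3.12 CPM (−0.29 ± 0.33). Their sum was 11.5 ± 3.74 CPM in WT against 8.07 ± 2.72 CPM in OPA1-deficient libraries (−0.48 ± 0.25, 95% interval −1.01 to 0.05, edgeR adjusted p = 0.983), and the log2 fold change of the sum ran from −0.26 without WT replicate 3 to −0.74 without OPA1-deficient replicate 1.

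Red pulp macrophages, the phagocytes of the spleen that clear aged red cells, also use several of these receptors. Of the 15 genes in a list of their markers, 13 had lower windows in OPA1-deficient libraries (median log2 fold change −0.13), or 11 of 13 with the C1qa, C1qb and C1qc genes, which share a window, counted once (−0.11). Over all gene windows 59.5% were lower and the median was −0.02. None was called (0 of 15 by edgeR, DESeq2 or limma-voom). At an unadjusted p under 0.05 in edgeR there were 3 of the 13 windows, all lower, where 3.93% of all windows were. They included the shared C1q window, described below, and that of Vcam1. Vcam1 was at 15.1 ± 3.56 CPM in WT against 9.38 ± 1.34 CPM in OPA1-deficient libraries (log2 fold change −0.68 ± 0.19, edgeR adjusted p = 0.679). Regions were found at the starts of 5 of the 15, and summed to 26.1 to 35.4 CPM in WT against 19.4 to 25.9 CPM in OPA1-deficient libraries. Windows of the 3 markers with the highest level per kb were at 193 ± 4.26 and 183 ± 10.3 CPM for Hmox1, 137 ± 16.9 and 137 ± 12.3 CPM for Adgre1, and 31.0 ± 3.73 and 28.7 ± 0.320 CPM for Fcgr1. The lowest marker window was that of Cd163, at 2.90 ± 0.690 and 1.90 ± 0.163 CPM. The part of these values in the lower means at Gas6 and Cd36 was not tested.

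Elmo1 encodes the adaptor that, with DOCK proteins, activates RAC during engulfment. Its 29 regions all lay inside the gene, and 16 of the 28 tested had higher means in OPA1-deficient libraries. The start region (chr13:20090120-20090921) was at 32.7, 43.9, 30.6 and 34.2 CPM in WT against 38.7, 26.5, 35.5 and 31.0 CPM in OPA1-deficient libraries, with the highest value in WT and the lowest in OPA1-deficient cells (−0.10 ± 0.14, edgeR adjusted p = 0.942). The region with the highest mean CPM over all libraries lay 1.84 kb inside (chr13:20092349-20092781), at 23.3, 40.7, 35.4 and 31.6 CPM in WT against 36.7, 37.2, 45.7 and 32.3 CPM in OPA1-deficient libraries (0.22 ± 0.14, edgeR adjusted p = 0.854). The smallest p was at a region 61.1 kb inside (chr13:20151603-20151946), with 9.73, 10.1, 11.2 and 10.2 CPM against 13.2, 14.9, 10.5 and 15.7 CPM (0.39 ± 0.19, edgeR adjusted p = 0.770). Only OPA1-deficient replicate 3 fell within the WT range there. A second start listed by RefSeq, far inside the gene, had a weaker region 0.603 kb from it, at 6.09 ± 1.40 and 5.82 ± 1.93 CPM. The window had 308 ± 26.2 CPM in WT, with a range of 283 to 341 CPM, and 321 ± 5.01 CPM in OPA1-deficient libraries, with a range of 316 to 326 CPM (0.06, 95% interval −0.09 to 0.22).

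Single libraries moved several of these windows together, in both genotypes. In WT, Stab1 was at 149, 202, 156 and 171 CPM and Lrp1 at 226, 279, 236 and 255 CPM, while Cd36 was at 166, 125, 171 and 156 CPM and Timd4 at 40.6, 25.6, 39.9 and 35.9 CPM. Replicate 2 was thus the highest at Stab1 and Lrp1 and the lowest at Cd36 and Timd4. Among OPA1-deficient libraries replicate 4 showed the opposite, with 152 CPM at Stab1 and 212 at Lrp1, the lowest of the 4, and 161 at Cd36 and 48.9 at Timd4, the highest. Havcr2 and Elmo1 were also highest in WT replicate 2, at 274 and 341 CPM, but not lowest in OPA1-deficient replicate 4, at 250 and 325 CPM. Own regions made up 24.2% of the Stab1 window and 42.7% of the Lrp1 window. Of all pairs of member windows, the following were picked after their values were seen. Over the 8 libraries the log2 window levels of Stab1 and Lrp1 had a Pearson r of 0.90, and those of Havcr2 and Elmo1 0.83. Timd4 and Cd36 had 0.81, Timd4 and Stab1 −0.85, and Timd4 and Lrp1 −0.84. These are descriptions of 8 points that share library, depth and scaling. Start regions of neutrophil and monocyte markers summed to 43.8, 78.7, 52.7 and 73.2 CPM in WT against 65.6, 63.6, 74.4 and 49.2 CPM in OPA1-deficient libraries, lowest in WT replicate 1 and OPA1-deficient replicate 4 and highest in WT replicate 2. Start regions of 7 pathway genes of the engulfment machinery summed to 420, 515, 446 and 467 CPM against 447, 464, 477 and 393 CPM. Their lowest and highest libraries were the same. Macrophage marker start regions were highest in WT replicate 3 and OPA1-deficient replicate 4 of their groups. They summed to 26.1, 29.3, 35.4 and 32.8 CPM against 22.3, 23.9, 19.4 and 25.9 CPM. The part of any list in the pattern was not tested.

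**Figure D5:**
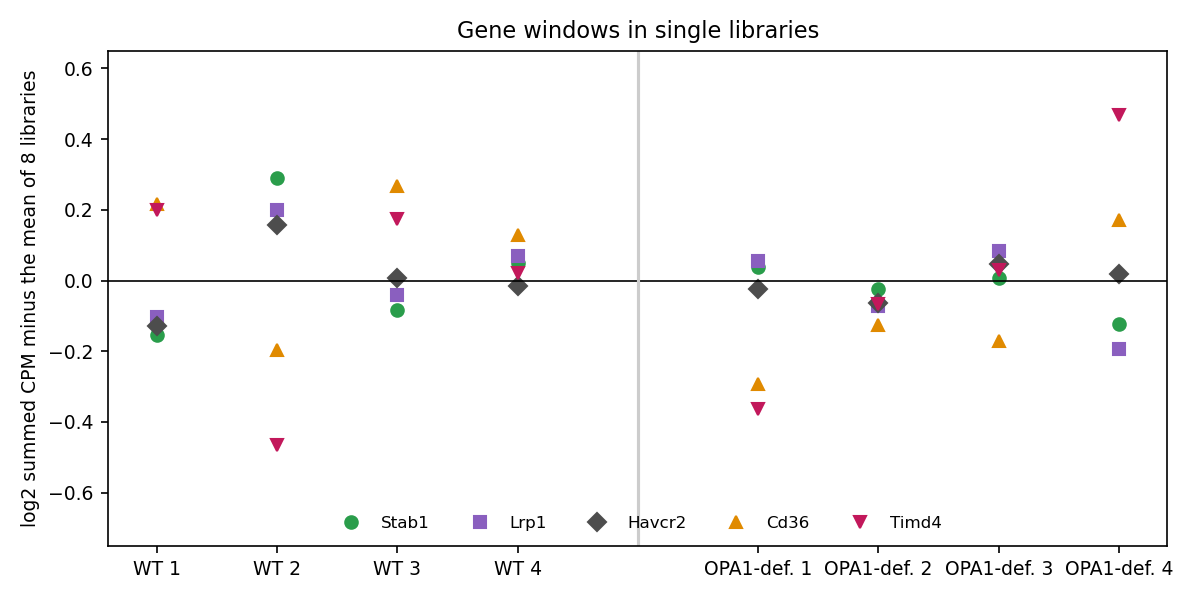
Log2 window level of 5 genes in each library, minus the mean of that gene over the 8 libraries. WT replicate 2 is high at Stab1 and Lrp1 (202 and 279 CPM) and low at Cd36 and Timd4 (125 and 25.6 CPM), and OPA1-deficient replicate 4 shows the reverse at these genes. Havcr2 is also highest in WT replicate 2 (274 CPM) but not low in OPA1-deficient replicate 4 (250 CPM, where the mean of the 8 libraries is 247 CPM).

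Other genes of the pathway also gave no call. Of 55 genes in 5 lists (other receptors, bridging proteins, engulfment machinery, find-me and don't-eat-me signals, digestion and lipid response) 53 were tested, and 0 were called by edgeR, DESeq2 or limma-voom (smallest edgeR adjusted p 0.532). With genes that share a window counted once, 32 of 51 were lower (62.7%, against 59.5% of all windows), and 6 had an unadjusted p under 0.05, all of them lower, where 3.93% of all windows were. With the same counting, the numbers of higher and lower windows were 5 and 12 for other receptors, 1 and 5 for bridging proteins, 4 and 5 for the engulfment machinery, 2 and 5 for find-me and don't-eat-me signals and 7 and 5 for digestion and lipid response.

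The smallest p was shared by C1qa, C1qb and C1qc, whose products form complement C1q, a bridge from dying cells to phagocytes. Their common window was at 12.0, 14.5, 19.8 and 16.9 CPM in WT against 10.1, 11.4, 7.64 and 8.20 CPM in OPA1-deficient libraries (−0.75 ± 0.19, edgeR adjusted p = 0.532). These genes are also in the macrophage marker list. Msr1 and Marco, class A scavenger receptor genes, were at 67.2 ± 9.96 and 50.4 ± 8.26 CPM (−0.42 ± 0.12, edgeR adjusted p = 0.702) and at 21.8 ± 6.40 and 14.1 ± 2.76 CPM (−0.61 ± 0.20, edgeR adjusted p = 0.806). Abca1, the cholesterol exporter induced after uptake of dead cells, was at 279, 267, 293 and 282 CPM in WT against 233, 234, 260 and 251 CPM in OPA1-deficient libraries (−0.20 ± 0.07, edgeR adjusted p = 0.826). Among the pathway genes, the windows most like the sum of the 9 member windows over the 8 libraries were those of Gpr132 (Pearson r 0.75), Itgb5 (0.69) and Sirpa (0.68). That sum was 1563.0 ± 77.1 CPM in WT against 1525.7 ± 31.1 CPM in OPA1-deficient libraries. It includes regions at the starts of other genes, such as Hnrnpul1 (mean of 137 CPM over the 8 libraries) and Tmem87b (112 CPM). The sum and the windows of Gpr132, Itgb5 and Sirpa were each highest in WT replicate 2, at 1657, 301, 89.9 and 272 CPM.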

How the data were processed

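The table of ATAC-seq counts covered 4 WT and 4 OPA1-deficient libraries of sorted splenic cDC1. The tools named per the submitters' processing notes are MACS2 2.1.0.20150603, bedtools, SAMtools, Picard 1.65 and cutadapt 1.9, with the builds GRCm38 and mm10. How they were set, whether read ends were shifted and how regions were chosen is not given in the sources used here. Raw counts are what the authors deposited, and coordinates are printed as the authors' table gives them.

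Regions were filtered with filterByExpr (59247 kept), scaled with TMM and tested with edgeR 4.0.16 (quasi-likelihood, robust), with Benjamini-Hochberg adjustment over all regions. The same fit was run on counts summed within 25 kb of each protein-coding gene. Alternatives used DESeq2 1.42.0, limma-voom (limma 3.58.1), other scalings, filters and windows, and left out each library. No libraries were duplicates (chi-square per degree of freedom 2.16 to 4.79 over 12 pairs within groups).

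Gene spans came from RefSeq on GRCm38.p6, without exons. Exonic and intronic positions were not analysed here. For each member the text names the region nearest the start, the strongest and that with the smallest p, for the pathway lists the 6 genes with the smallest p and the 3 most like the members' sum, and for the cDC1 and macrophage lists the 4 genes with the highest level, of which 1 is not reported here. Further regions and genes were named after their values were seen. Members and lists were chosen with earlier results of these data known.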

Additional observations from a re-analysis of the deposited data

Results flagged for a closer look

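In 6 of 68 groups of 4 libraries examined, over the named regions and gene windows, 1 library stood apart from the other 3 by Dixon's criterion, which compares the gap to the nearest of the others with the whole range. Chance gives about 1 in 20 groups. WT replicate 2 accounted for 3 of them: at the start region of Havcr2 it was at 43.3 CPM where the others were at 34.1 to 35.3, at the region inside Timd4 nearest its start at 10.1 CPM (13.7 to 14.0), and at the region by the start of Stat6 in the Lrp1 window at 51.4 CPM (34.7 to 35.0). OPA1-deficient replicate 4 was at 19.7 CPM at the Cd36 region 44.0 kb upstream of the start, where the others were at 13.8 to 14.4. OPA1-deficient replicate 1 was at 4.13 CPM downstream of Mertk (3.35 to 3.44), and OPA1-deficient replicate 2 at 88.5 CPM at the start of Smim4 in the Stab1 window (82.6 to 83.2).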

How the results depend on the processing

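No member region, named region or member window was called under any alternative run, where regions over the gene span alone (63) or within 50 kb (119) were also tried. Over all regions, calls numbered 12 with edgeR, 38 with DESeq2, 3 with limma-voom and 1 to 68 when 1 library was left out. The count was 68 with WT replicate 2 left out, then 22 (OPA1-deficient replicate 4), 8 (WT replicate 1), 4 (OPA1-deficient replicate 2) and 1 for each of the other libraries. Same-numbered libraries did not deviate together (correlations −0.13 to −0.01, and 0 of 8 libraries correlated best with their own number), so the numbers were not taken as pairs, and with a replicate block the count was 1. Of 528 alternative values for 34 single windows and regions, 14 were counted as reversed and 514 were not, none called (lowest adjusted p 0.211). That count leaves out 2 values that were 0.00 after rounding and also crossed 0 without 1 library. They were the Axl window (−0.03 to 0.03) and the Havcr2 region at 46436719 (−0.03 to 0.03). The Havcr2 window was at 0.01 with total counts and the Timd4 window at −0.12 over the gene span. Leaving out 1 library gave −0.05 to 0.04 for the Havcr2 window, −0.12 to 0.16 for Timd4 and −0.11 to 0.04 for Stab1, and for single regions −0.07 to 0.19 and −0.15 to 0.09 (Lrp1, at 127621235 and 127642742), −0.19 to 0.02 (Elmo1, at 20090120), −0.66 to 0.10 (Gas6, at 13503986) and −0.01 to 0.07 (Axl, at 25754615). Without 1 library, 26 of the 34 values moved by over 1.5 times or changed sign. Those that kept their sign included single regions of Axl (−0.54 to −0.16, at 25781585), Mertk (−0.37 to −0.05 and −0.48 to −0.15, at 128698574 and 128806643), Havcr2 (0.08 to 0.20, at 46454537), Timd4 (−0.40 to −0.06, at 46812287), Cd36 (−0.71 to −0.30 and −0.23 to −0.04, at 17835664 and 17854159), Stab1 (−0.61 to −0.30, at 31188706) and Elmo1 (0.09 to 0.35, at 20092349), and the windows of Mertk (−0.09 to −0.04) and Elmo1 (0.03 to 0.12). The cause was not tested. Without WT replicate 2 the edgeR fit called 35 of all gene windows, against 4 with every library. For the pathway lists 0 genes were called in any setting. The smallest adjusted p among them was 0.0557 without WT replicate 2 and 0.207 without OPA1-deficient replicate 4, both in edgeR, and 0.141 with DESeq2. It was 0.482 or higher in each other setting. The median standard error of single regions, 0.25, covers counting error and variation between libraries together, and small differences were not detectable.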

Other observations

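The 3 member regions under the filter on low counts were 1 in Elmo1 (chr13:20371590-20371790), 1 in Cd36 (chr5:17821439-17821639) and 1 beside the start of Med7 in the Havcr2 window (chr11:46437319-46437347). The Elmo1 region was at 1.37, 1.56, 1.27 and 0.359 CPM in WT against 4.27, 0.725, 2.68 and 2.79 CPM in OPA1-deficient libraries. The Cd36 region had 1.49 ± 0.591 and 1.92 ± 1.26 CPM, and the Havcr2 region 0.980 ± 0.360 and 1.57 ± 0.634 CPM (n = 4 each). None was tested.

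Among the 100 regions, the 11 within 1 kb of the start of another gene had a median WT level of 67.1 CPM per kb, the 10 within 1 kb of a member's own start 22.5, and the other 79 regions 19.6.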
